A study of Mus musculus with 8 samples.

Results

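The genes described here are 41 mouse genes of glutathione metabolism, the thioredoxin and peroxiredoxin system and the Nrf2 antioxidant response, taken by name from a table of 54134 genes. All 41 were in the table, and all 41 reached 1 TPM (a length-corrected share of the transcripts of each library) in at least 2 libraries, the filter for testing, which 14985 genes passed. RNA came from wild-type mouse bone marrow cells, labelled BMAd, after 14 days of adipogenic culture, a step shared by all groups. Markers of adipocytes and of other cell types are given below. The groups were GC+GW9662, GC and Control. GC+GW9662 (n = 3) was given 1e-06 M of the synthetic glucocorticoid dexamethasone together with GW9662, an antagonist of the adipocyte transcription factor PPARγ, for 24 hours. GC (n = 3) was given the same dexamethasone alone for 24 hours. Control (n = 2) had adipogenic differentiation only. The GW9662 dose, any vehicle, and the strain, sex, age and number of the mice are not given in the sources used here. Whether replicates were separate cultures is not stated, so the p-values measure only how far these libraries spread, which may be technical.

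Nrf2, the protein of Nfe2l2, is a transcription factor that Keap1 normally holds back by handing it to a ubiquitin ligase for destruction. Oxidants and electrophiles modify Keap1, and Nrf2 then accumulates and binds antioxidant response elements with small Maf proteins. Its known target genes make glutathione, keep thioredoxin reduced and detoxify quinones. Glutathione peroxidases and peroxiredoxins remove peroxides with electrons from these systems, superoxide dismutases make hydrogen peroxide from superoxide, and glutathione transferases attach glutathione to reactive compounds. In adipocytes the same enzymes handle peroxides and aldehydes that arise from stored lipid.

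The core of the antioxidant response element, TGACNNNGC, was searched on both strands from 250 bases before to 50 bases after each gene start in RefSeq promoters (GRCm38.p6). Windows were found for 35 of the 41 genes, and 8 of these (22.9%) held the core, against 14% of 27025 genes. No window was matched for Gclc, Gsr, Gsta4, Prdx6, Aldh3a1 and Sod3. The stretches around the 8 cores are shown because the element is the kind of site that Nrf2 is known to bind. Each runs 5′ to 3′ on the gene's strand with the core in capitals.
Srxn1 (chr2:152105542-152105570, plus strand): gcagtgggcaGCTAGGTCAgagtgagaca
Prdx1 (chr4:116685436-116685504, plus strand): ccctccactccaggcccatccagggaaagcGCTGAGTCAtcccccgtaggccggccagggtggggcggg
Gclm (chr3:122245393-122245461, plus strand): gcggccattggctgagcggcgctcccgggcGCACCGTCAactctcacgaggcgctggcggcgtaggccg
Txnrd1 (chr10:82859084-82859152, plus strand): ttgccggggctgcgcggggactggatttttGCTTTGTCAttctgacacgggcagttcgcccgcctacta
Sod1 (chr16:90220676-90220744, plus strand): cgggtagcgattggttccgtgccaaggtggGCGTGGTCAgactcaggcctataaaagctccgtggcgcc
Gstm5 (chr3:107895782-107895850, plus strand): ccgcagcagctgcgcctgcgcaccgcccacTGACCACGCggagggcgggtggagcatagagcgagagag
Mgst1 (chr6:138140441-138140509, plus strand): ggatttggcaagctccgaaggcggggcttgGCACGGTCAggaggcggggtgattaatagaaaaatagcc
Nfe2l2 (chr2:75704865-75704913, minus strand): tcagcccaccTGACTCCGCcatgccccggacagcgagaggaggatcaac
The core of Prdx1 contains the shorter motif TGANTCA, which AP-1 factors also bind, and no other stretch shown does. The shorter motif was searched only in these stretches. Outside them it also occurs in promoter windows, for example those of Srxn1 and Gstm5. The Srxn1 core starts 29 bases after the gene start and the other 7 lie before it. Txnrd1 has the core at 1 of 3 annotated starts, and Mgst1 at 1 of 2. Of the genes with a window, the core was present in 5 of 12 whose GC libraries all lay above the other 5 libraries, in 2 of 13 whose GC libraries all lay below them and in 1 of 10 others. These matches describe letters only, since no binding was measured.

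The estimated depth was 25186841 to 39276430 reads per library. These are estimates because only 64.6% to 69.3% of low values came within 0.02 of a whole number of reads. Of 6 genes that glucocorticoids are known to induce, 4 were lower in GC than in Control (Fkbp5, Tsc22d3, Per1 and Zbtb16), against the labels. Over all tested genes 39.1% were called lower. Dusp1 was higher (1.92, SE 0.09, adjusted p = 2.0e-06, log2) and Sgk1 did not pass. Fkbp5 averaged 95.4 ± 14.3 TPM in GC+GW9662, 58.5 ± 24.2 TPM in GC and 446 ± 24.1 TPM in Control (mean ± SD, n = 3, 3 and 2, here and below). Tsc22d3 averaged 429 ± 27.2 TPM in GC+GW9662, 59.6 ± 7.70 TPM in GC and 557 ± 21 TPM in Control. The groups below are the labelled ones, and each direction depends on the labels being right. Adipocyte markers summed to 1370.2 to 1541 TPM in GC+GW9662, 323 to 343 TPM in GC and 1496 to 1514 TPM in Control, with Lep at 0 in every library. Cebpa made most of the sum in GC, at 287 ± 17.4 TPM. The other 10 tested markers were all lower in GC than in Control (90.9% of the 11, against 39.1% of all tested genes). Of the 11, 4 were higher and 4 lower in GC+GW9662 than in Control (36.4% each, against 14.1% and 48.6% of all tested genes). Adipoq, adiponectin, averaged 251 ± 8.02 TPM in GC+GW9662, 3.71 ± 1.23 TPM in GC and 170.3 ± 4.50 TPM in Control. Macrophage markers summed to far more, 29690.3 to 33514 TPM in GC+GW9662, 10407 to 10865 TPM in GC and 34081 to 34671 TPM in Control. Of these 15 genes, 12 were lower and 1 higher in GC than in Control (39.1% and 16.2% of all tested genes), and 9 were lower and 1 higher in GC+GW9662 than in Control (48.6% and 14.1%). Csf1r, the macrophage growth factor receptor, had 147, 123 and 147 TPM in GC+GW9662, 15.4, 39.4 and 30.8 TPM in GC, and 729.7 and 688 TPM in Control. Marrow stroma and osteoblast markers summed to 332 to 367 TPM in GC+GW9662, 46.1 to 93.5 TPM in GC and 1263 to 1322 TPM in Control. Of 6 neutrophil markers S100a8 alone was abundant, with 78.8, 82 and 71.1 TPM in GC+GW9662, 548, 248 and 346 TPM in GC, and 19.9 and 25.6 TPM in Control. The other 5 were below 3 TPM in every library, Ly6g and Elane at 0 in most. In bulk RNA, fewer cells of a type and less RNA per cell cannot be told apart, and the part of these shifts in the results below was not tested. Fth1, the iron-storing ferritin heavy chain, took 3.75% to 3.91% of all TPM in GC+GW9662, 13.3% to 13.5% in GC and 3.69% to 3.77% in Control. GC replicate 1 stood apart from the other GC libraries, with a chi-square per degree of freedom of 246.5 and 134.9 against them, where the other 2 gave 28.1 against each other.

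The antioxidant genes moved in both directions in GC libraries. Against Control, Srxn1, Prdx1 and Gclc were 32.1-, 14.8- and 8.20-fold higher on the TPM + 1 scale. Mgst3, Gpx1 and Aldh3a1 were 22.8-, 13- and 8.43-fold lower. Changes below are log2 differences of TPM + 1. Against Control, GC libraries had 18 of the 41 genes higher (43.9%), 16 lower (39%) and 7 that did not pass. The calls are from limma on log2(TPM + 1), at a Benjamini-Hochberg adjusted p under 0.05 over all tested genes. Over all tested genes 16.2% were called higher, 39.1% lower and 55.3% either way, so the lower share was near that of all genes. The median change was 0.25 for the 41 genes and -0.38 for all genes (log2). In GC+GW9662 against GC, 18 were higher, 16 lower and 7 did not pass, where 28.3% and 33.5% of all tested genes were called higher and lower and 61.7% either way, with medians of 0.01 and -0.11. Set against Control, GC+GW9662 had 17 higher, 14 lower and 10 that did not pass, where 14.1% and 48.6% of all tested genes were called higher and lower and 62.7% either way, with medians of 0.24 and -0.49. At a change of at least 2-fold as well, GC against Control had 13 of the genes higher and 13 lower (9.16% and 28.4% of all genes), GC+GW9662 against GC 15 and 14 (16.8% and 21.8%), and GC+GW9662 against Control 3 and 7 (4.78% and 34.3%). The comparisons share libraries, so a gene that is high in GC counts in more than 1 of them.

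**Figure D1:**
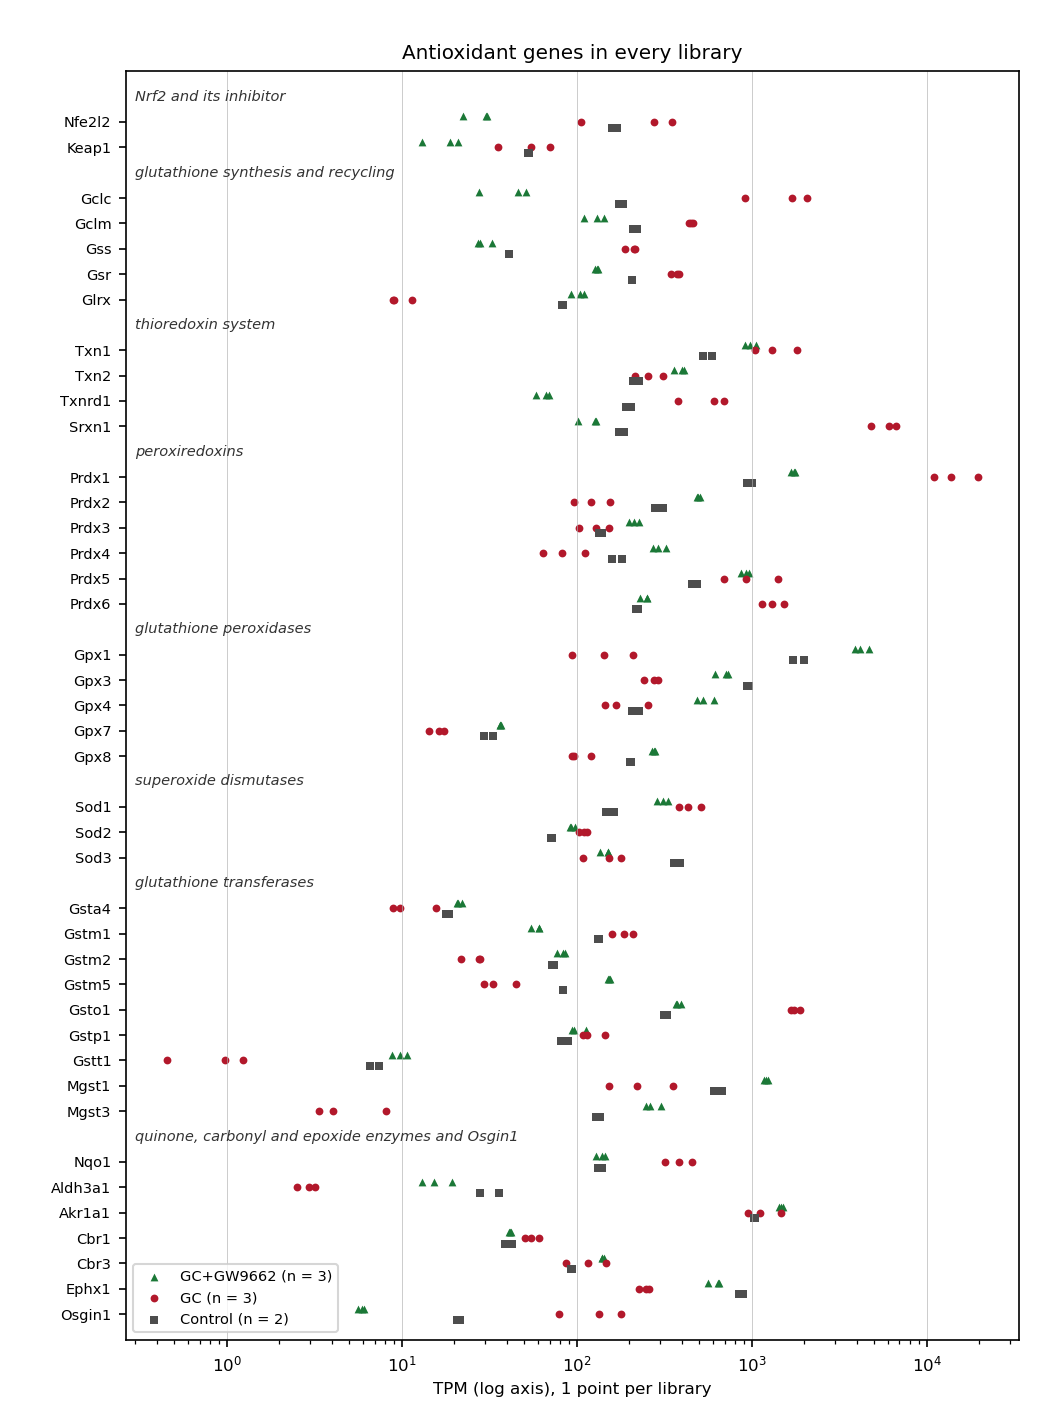
TPM of each of the 41 genes (log axis), 1 point per library, in GC+GW9662 (triangles, n = 3), GC (circles, n = 3) and Control (squares, n = 2), grouped by role. For 15 genes all GC points lie above the other 5, and for 15 all lie below (16.4% and 23.3% of all tested genes).

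The directions depend in part on the scale. Median-ratio scaling, which sets the typical gene equal between libraries, moved the median of all tested genes to 0.04 in GC against Control, -0.01 in GC+GW9662 against GC and 0.01 in GC+GW9662 against Control. Of the 14985 tested genes, 4070 were then called higher and 4029 lower in GC against Control (2428 and 5863 as deposited). In GC+GW9662 against GC the calls over all genes were 4610 and 4762 (4236 and 5017 as deposited). In GC+GW9662 against Control they were 4387 and 4744 (2114 and 7284 as deposited). Among the 41 genes the counts became 21 higher and 9 lower in GC against Control, 18 and 14 in GC+GW9662 against GC, and 27 and 7 in GC+GW9662 against Control. Under every alternative run, 23 of the 34 calls in GC against Control, 32 of 34 in GC+GW9662 against GC and 11 of 31 in GC+GW9662 against Control were kept. All 3 GC libraries lay above all 5 others for 15 genes (16.4% of all tested genes) and below them for 15 (23.3%).

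**Figure D2:**
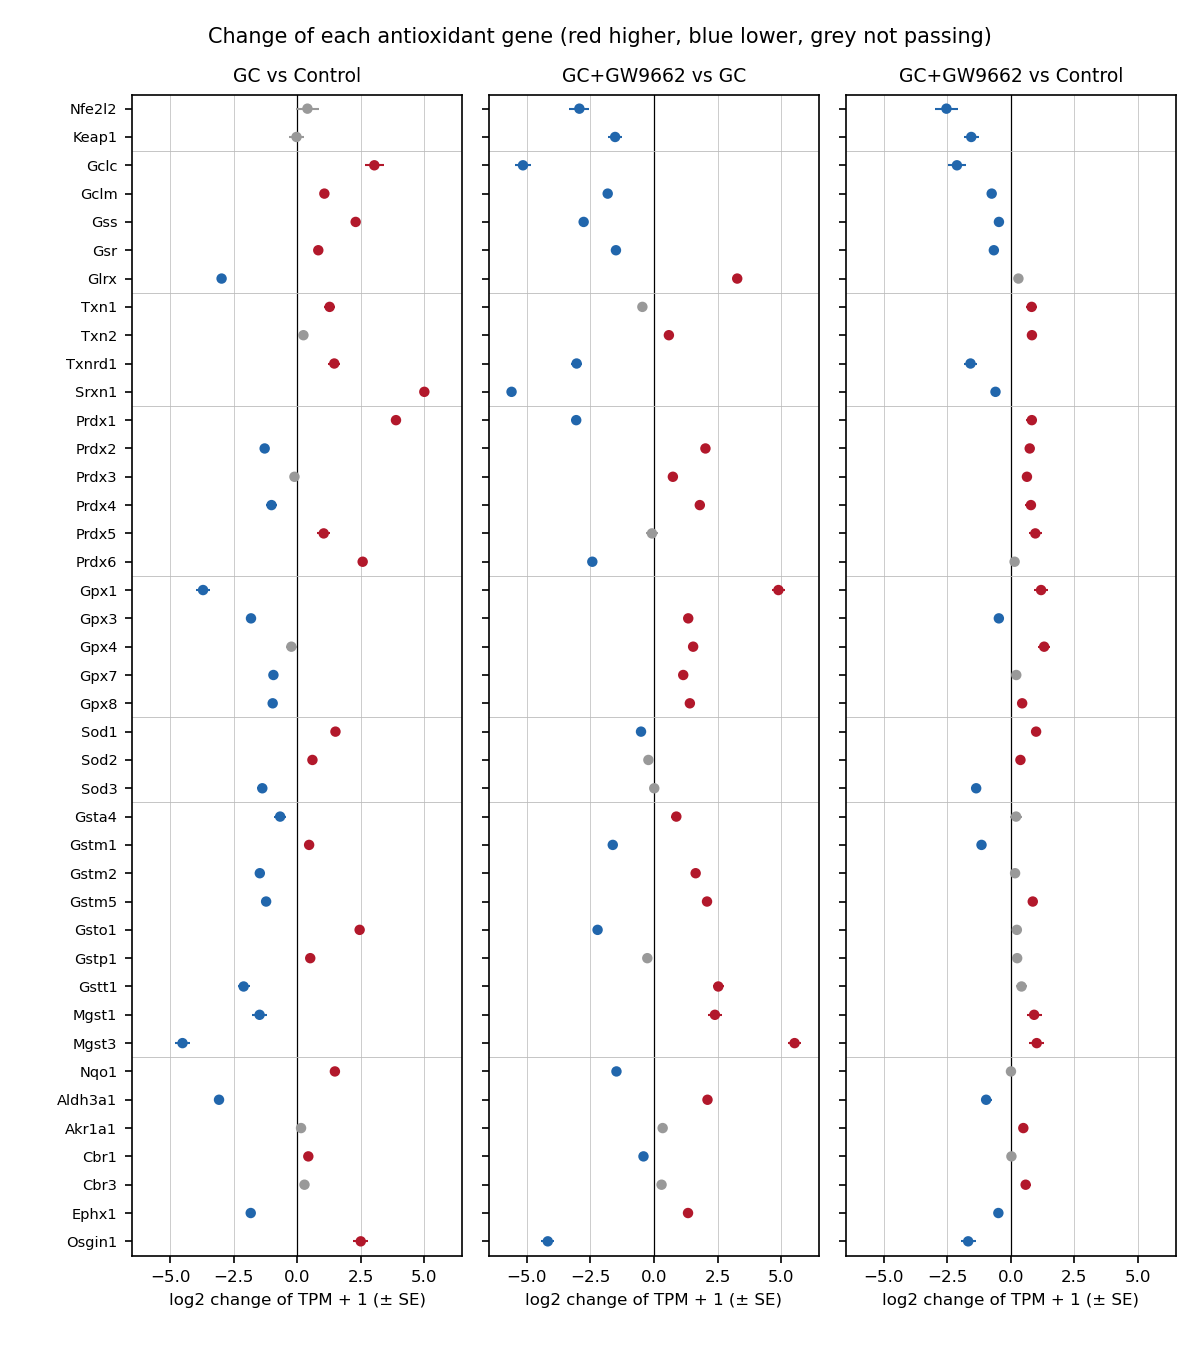
log2 change of TPM + 1 with its SE for each gene in the 3 comparisons; red is higher, blue lower and grey not passing in limma. The first comparison spans -4.51 (Mgst3) to 5.00 (Srxn1), and the third stays between -2.53 (Nfe2l2) and 1.31 (Gpx4).

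Transcripts of the sensor pair fell in GC+GW9662 and were spread widely in GC. Nfe2l2 (chr2:75675513-75704641, minus strand) had 30.2, 22.5 and 30.9 TPM in GC+GW9662, 106, 351 and 278 TPM in GC, and 171 and 158 TPM in Control. The GC libraries lay on both sides of Control, and the change against Control was 0.40 (SE 0.44, adjusted p = 0.47). It passed without GC replicate 1, the lowest of them, at 0.92 (adjusted p = 0.0019), with median-ratio scaling and with the exon-length trend removed. In GC+GW9662, Nfe2l2 fell by 2.94 against GC (SE 0.40, adjusted p = 4.2e-04) and by 2.53 against Control (SE 0.44, adjusted p = 0.0028), and none of its values reached a value of the other groups. Keap1 (chr9:21229730-21239361, minus strand), the inhibitor, had 21, 13 and 18.9 TPM in GC+GW9662, 35.7, 70.8 and 55.2 TPM in GC, and 52.4 and 53.4 TPM in Control. GC libraries again lay on both sides of Control, with a change of -0.03 (SE 0.29, adjusted p = 0.95) that turned to 0.65 (adjusted p = 0.017) when the exon-length trend was removed. Keap1 fell by 1.53 in GC+GW9662 against GC (adjusted p = 0.0015) and by 1.56 against Control (adjusted p = 0.0034). The ratio of Nfe2l2 to Keap1 TPM was 1.44, 1.73 and 1.63 in GC+GW9662, 2.97, 4.96 and 5.03 in GC and 3.26 and 2.97 in Control, lowest in GC+GW9662.

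The enzymes that make and recycle glutathione were higher in GC and lower in GC+GW9662, with Glrx the exception. Gclc (chr9:77754535-77794485, plus strand), the catalytic subunit of glutamate-cysteine ligase and the rate-limiting step of glutathione synthesis, had 51.6, 27.7 and 46.2 TPM in GC+GW9662, 914, 2072 and 1702 TPM in GC, and 185 and 174 TPM in Control. The 3 groups did not overlap: Gclc rose by 3.04 (SE 0.36, adjusted p = 2.2e-04) in GC against Control and fell by 5.16 in GC+GW9662 against GC (SE 0.33, adjusted p = 7.5e-06). Its partner Gclm (chr3:122245557-122270732, plus strand), the modifier subunit, had 143, 109.6 and 131 TPM in GC+GW9662, 465, 439.7 and 453 TPM in GC, and 221 and 209 TPM in Control. Gclm rose less than Gclc, by 1.07 (SE 0.13, adjusted p = 1.9e-04), and fell by 1.82 in GC+GW9662 against GC (adjusted p = 6.6e-06). Within each library the ratio of Gclc to Gclm TPM, which no scaling of libraries can change, was 0.36, 0.253 and 0.353 in GC+GW9662, 1.97, 4.71 and 3.76 in GC and 0.837 and 0.831 in Control. The catalytic subunit thus exceeded the modifier in all GC libraries and stayed below it in the other 5.

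Gss (chr2:155563181-155592810, minus strand), which adds glycine in the last step of glutathione synthesis, had 32.7, 27.1 and 28.2 TPM in GC+GW9662, 188, 216 and 212 TPM in GC, and 40.8 and 40.8 TPM in Control. It rose by 2.30 (SE 0.12, adjusted p = 3.5e-06) in GC against Control and fell by 2.77 in GC+GW9662 against GC (adjusted p = 8.0e-07). Parts of Gss exons overlap Acss2 on the other strand (6.68% of its exon bases), which was low where Gss was high. Acss2 had 22.1, 14.9 and 21.4 TPM in GC+GW9662, 6.77, 7.0 and 6.74 TPM in GC, and 34.2 and 37.1 TPM in Control. Gsr, which regenerates reduced glutathione, averaged 130.1 ± 2.19 TPM in GC+GW9662, 369 ± 19.9 TPM in GC and 207 ± 1.51 TPM in Control. It changed by 0.83 (SE 0.09, adjusted p = 1.4e-04) in GC against Control and -1.50 (SE 0.08, adjusted p = 3.7e-06) in GC+GW9662 against GC. Glrx (chr13:75839868-75850154, plus strand), glutaredoxin, which removes glutathione from protein thiols, had 105, 93.4 and 110.4 TPM in GC+GW9662, 11.5, 8.87 and 9.02 TPM in GC, and 84.1 and 82.5 TPM in Control. It ran the other way from the synthesis genes, with -2.98 (SE 0.15, adjusted p = 2.2e-06) in GC against Control and 3.27 (SE 0.13, adjusted p = 7.9e-07) in GC+GW9662 against GC.

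Srxn1 showed the greatest rise of the 41 genes in GC against Control. Srxn1 (chr2:152105516-152111376, plus strand), sulfiredoxin, which repairs peroxiredoxins that peroxide has over-oxidised, had 128, 101 and 128 TPM in GC+GW9662, 4803, 6712 and 6092 TPM in GC, and 186 and 175 TPM in Control. All GC values stood far above the other 5, a 32.1-fold rise against Control on the TPM + 1 scale (5.00, SE 0.17, adjusted p = 4.6e-07) and a fall of 5.61 in GC+GW9662 against GC (SE 0.15, adjusted p = 1.6e-07). Its TPM made up 6.22% to 8.72% in GC+GW9662, 65.8% to 77.4% in GC and 14.8% to 16.5% in Control of the 4 thioredoxin system genes. Txnrd1 (chr10:82833951-82897712, plus strand), the cytosolic selenoenzyme that reduces thioredoxin, had 67.1, 58.7 and 69.9 TPM in GC+GW9662, 377, 695 and 613 TPM in GC, and 204 and 191 TPM in Control. Each group was apart from the others, with 1.46 (SE 0.24, adjusted p = 0.0011) in GC against Control and -3.04 (SE 0.21, adjusted p = 1.2e-05) in GC+GW9662 against GC. Txn1, cytosolic thioredoxin, averaged 986 ± 69.5 TPM in GC+GW9662, 1387 ± 387 TPM in GC and 558 ± 46.4 TPM in Control. It passed against Control in GC (1.28, SE 0.21, adjusted p = 0.0011), while GC+GW9662 against GC gave -0.46 (SE 0.18, adjusted p = 0.06), which passed in 4 of 20 alternatives, among them without GC replicate 2 (-0.64, adjusted p = 0.0099). Txn2, the mitochondrial form, averaged 389.8 ± 27.9 TPM in GC+GW9662, 262 ± 48.8 TPM in GC and 219 ± 13.8 TPM in Control. It did not pass in GC against Control (0.25, SE 0.16, adjusted p = 0.22) and was higher in GC+GW9662 against GC (0.59, SE 0.14, adjusted p = 0.0078). The first of these passed in 4 of 20 alternatives: without GC replicate 2 (0.37, adjusted p = 0.042), with median-ratio scaling (0.79), with rescaling (0.45) and with the exon-length trend removed (0.80). The ratio of Txn1 to Txn2 TPM was 2.57, 2.58 and 2.45 in GC+GW9662, 5.77, 4.85 and 5.09 in GC and 2.52 and 2.59 in Control, higher in each GC library than in the other 5. Txn1 has 1051 exon bases and Txn2 4208. The median changes of genes of like length were 0.06 and -0.52 in GC against Control, and 0.38 and -0.73 in GC+GW9662 against Control. The part of exon length in this ratio was not tested.

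**Figure D3:**
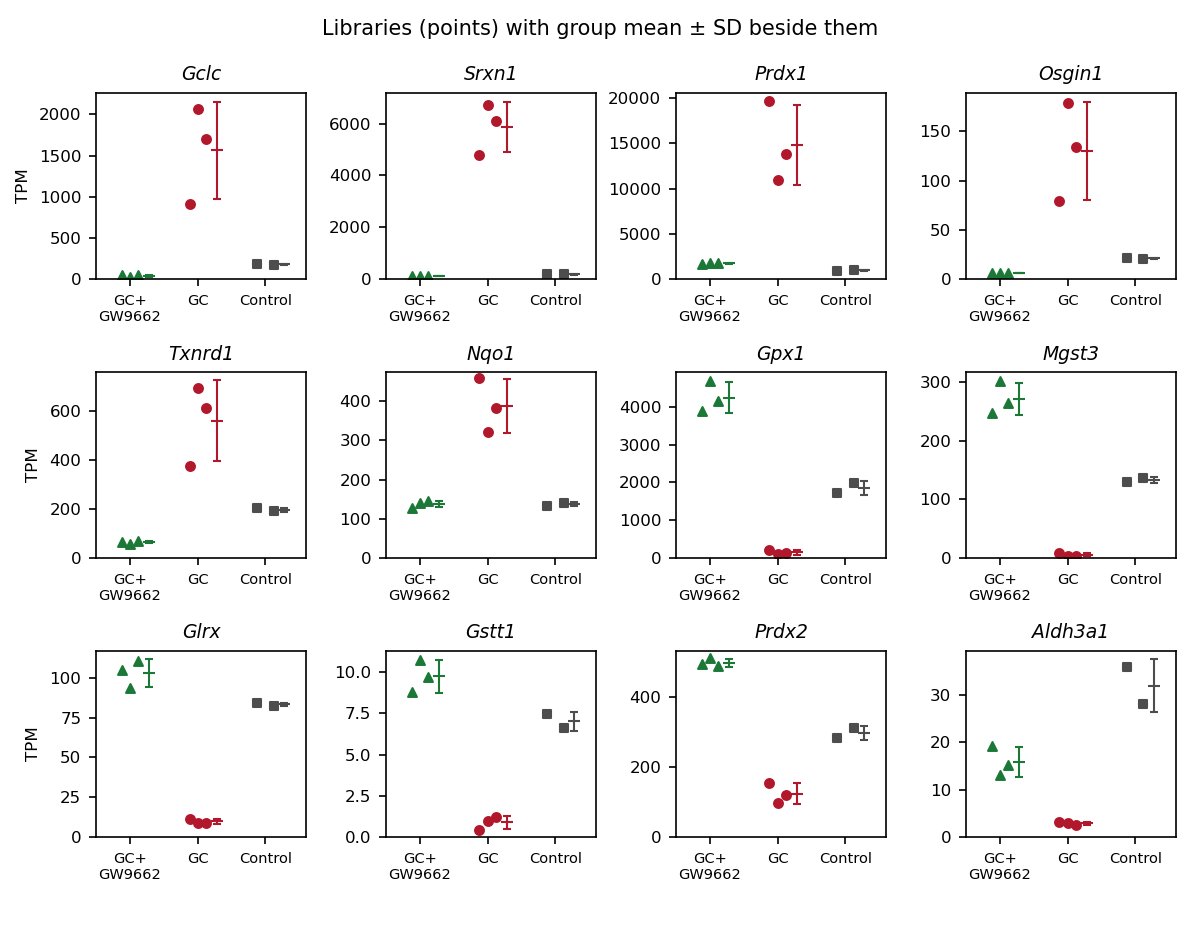
TPM of 12 genes in each library (points) with the group mean ± SD beside them, each panel from 0 with its own axis, in GC+GW9662, GC and Control. Gclc, Srxn1, Prdx1, Osgin1, Txnrd1 and Nqo1 are highest in GC, and Gpx1, Mgst3, Glrx, Gstt1, Prdx2 and Aldh3a1 are lowest there.

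Peroxiredoxins, which use thioredoxin or glutathione to destroy peroxides, split between members. Prdx1 (chr4:116685544-116700822, plus strand), the abundant cytosolic form, had 1669, 1759 and 1742 TPM in GC+GW9662, 19651, 10975 and 13797 TPM in GC, and 939 and 1005 TPM in Control. It was the most abundant of the 41 genes in every GC library, at 35.8% to 50.3% of their summed TPM, and rose by 3.89 (SE 0.21, adjusted p = 3.6e-06) against Control. In GC+GW9662 it fell by 3.06 against GC (SE 0.19, adjusted p = 6.9e-06). Prdx6 (chr1:161240112-161251219, minus strand), which takes electrons from glutathione, had 252, 230.1 and 253 TPM in GC+GW9662, 1536, 1150.0 and 1304 TPM in GC, and 224 and 217 TPM in Control. The GC libraries were again above all others, with 2.58 (SE 0.13, adjusted p = 2.5e-06) against Control and -2.43 (SE 0.12, adjusted p = 1.9e-06) in GC+GW9662 against GC.

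Prdx2 (chr8:84969587-84974834, plus strand), the closest relative of Prdx1 in the cytosol, had 492, 509 and 488 TPM in GC+GW9662, 154, 95.9 and 121 TPM in GC, and 282 and 311 TPM in Control. It was lowest in GC, at -1.28 (SE 0.18, adjusted p = 5.1e-04) against Control, and higher in GC+GW9662 than in GC by 2.02 (SE 0.16, adjusted p = 2.4e-05). The ratio of Prdx1 to Prdx2 TPM, free of library scaling, was 3.39, 3.45 and 3.57 in GC+GW9662, 127, 114 and 114 in GC and 3.33 and 3.23 in Control. It was nearly the same in GC+GW9662 and Control and far higher in each GC library. Of the Prdx2 exon bases, 5.67% overlap Junb on the opposite strand, which was higher where Prdx2 was lower. Junb had 150.0, 134 and 139.7 TPM in GC+GW9662, 581, 759.8 and 685 TPM in GC, and 191 and 179 TPM in Control. Prdx4 (chrX:155323918-155340754, minus strand), the form of the endoplasmic reticulum, had 272, 325 and 290.1 TPM in GC+GW9662, 112, 64 and 82 TPM in GC, and 158 and 182 TPM in Control. Its GC values were below the others, at -1.01 (SE 0.22, adjusted p = 0.0046) against Control and, in GC+GW9662 against GC, 1.80 (SE 0.19, adjusted p = 1.2e-04).

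The calls of Prdx2 and Prdx4 in GC against Control did not pass with median-ratio scaling (-0.74, adjusted p = 0.053, and -0.47, adjusted p = 0.24). Prdx3, the mitochondrial peroxiredoxin, averaged 213 ± 14.7 TPM in GC+GW9662, 129 ± 24.6 TPM in GC and 137 ± 4.11 TPM in Control. It passed only in the comparisons with GC+GW9662, at 0.74 against GC and 0.63 against Control. Prdx5 averaged 924 ± 50.6 TPM in GC+GW9662, 1017 ± 368 TPM in GC and 473 ± 19.4 TPM in Control, with a wide spread in GC. It passed against Control in GC (1.04, SE 0.25, adjusted p = 0.0083) though not without Control replicate 1 (1.0, adjusted p = 0.054). Prdx5 shares 19.1% of its exon bases with Trmt112 on the other strand. Trmt112 had 15.9, 16.9 and 13.1 TPM in GC+GW9662, 84.5, 67.6 and 71 TPM in GC, and 14.9 and 15.2 TPM in Control. Without strand in the libraries, reads from such overlaps cannot be assigned to a strand.

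Glutathione peroxidases were the reverse of Srxn1 and Prdx1: 4 of 5 were lower in GC than in Control, none was higher, and all 5 were higher in GC+GW9662 than in GC. Over all tested genes 39.1% were called lower in GC against Control and 28.3% higher in GC+GW9662 against GC. Gpx1 (chr9:108338903-108340343, plus strand), the main cytosolic glutathione peroxidase, had 3893, 4693 and 4158 TPM in GC+GW9662, 209, 94 and 144 TPM in GC, and 1724 and 1994 TPM in Control. It was 13-fold lower in GC than in Control on the TPM + 1 scale (-3.70, SE 0.28, adjusted p = 2.0e-05) and higher in GC+GW9662 than in GC by 4.90 (SE 0.25, adjusted p = 2.8e-06). The GC+GW9662 values also exceeded Control, by 1.19 (SE 0.28, adjusted p = 0.0075), a call lost without Control replicate 1 (1.09, adjusted p = 0.056). Set against Prdx1 in the same library, the ratio of Prdx1 to Gpx1 TPM was 0.429, 0.375 and 0.419 in GC+GW9662, 94.2, 117 and 95.9 in GC and 0.544 and 0.504 in Control. Gpx1 was thus the more abundant of these peroxide-removing transcripts in 5 libraries and the far scarcer in the 3 GC libraries.

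Gpx3 (chr11:54902453-54910377, plus strand), the secreted form found in plasma, had 736, 617 and 716 TPM in GC+GW9662, 243, 292 and 276 TPM in GC, and 969 and 937 TPM in Control. It was lowest in GC and highest in Control, with -1.82 (SE 0.12, adjusted p = 9.5e-06) in GC against Control and 1.35 (SE 0.11, adjusted p = 2.4e-05) in GC+GW9662 against GC. Gpx7 and Gpx8, of the endoplasmic reticulum, changed by -0.94 and -0.96 in GC against Control (adjusted p = 6.1e-04 and 3.5e-04), calls that median-ratio scaling did not keep (adjusted p = 0.1 and 0.14), and by 1.15 and 1.41 in GC+GW9662 against GC. Gpx4, which reduces lipid peroxides in membranes and guards against ferroptosis, averaged 539.8 ± 64.8 TPM in GC+GW9662, 189.7 ± 58.7 TPM in GC and 216 ± 14.2 TPM in Control. It did not pass in GC against Control (-0.23, SE 0.23, adjusted p = 0.42), except without GC replicate 1 (-0.47, adjusted p = 0.014), and was higher in GC+GW9662 than in GC by 1.54 (SE 0.20, adjusted p = 3.7e-04). A pseudogene copy, Gpx4-ps2, had 360.3, 428 and 374 TPM in GC+GW9662, 163, 102 and 125 TPM in GC, and 136 and 174 TPM in Control. The copies can share reads, so the level of Gpx4 is uncertain.

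All 3 superoxide dismutases differed between GC and Control, 2 upward and 1 downward (16.2% and 39.1% of all tested genes). Sod1, the cytosolic copper and zinc enzyme, averaged 310.3 ± 21.8 TPM in GC+GW9662, 445 ± 66.2 TPM in GC and 155 ± 11.9 TPM in Control. It was higher in GC than in Control (1.51, SE 0.14, adjusted p = 5.4e-05). GC+GW9662 lay between, at -0.51 (SE 0.13, adjusted p = 0.0084) against GC, a call lost with median-ratio scaling and with the exon-length trend removed. Sod2, the mitochondrial manganese enzyme, ranged over a narrower span, 93.8 ± 3.13 TPM in GC+GW9662, 109.6 ± 6.04 TPM in GC and 71.9 ± 0.693 TPM in Control, and rose by 0.60 (SE 0.10, adjusted p = 0.0014) in GC against Control. GC+GW9662 against GC gave -0.22 (SE 0.09, adjusted p = 0.063), which passed in 3 of 20 alternatives, among them without GC replicate 2 (-0.26, adjusted p = 0.043), and was 0.31 with the exon-length trend removed (adjusted p = 0.27). Sod3, the extracellular enzyme, averaged 145 ± 8.58 TPM in GC+GW9662, 147 ± 34.9 TPM in GC and 376 ± 20.7 TPM in Control. It was lower than Control in GC (-1.37, SE 0.19, adjusted p = 4.8e-04) and in GC+GW9662 (-1.36, SE 0.19, adjusted p = 0.0018), and the 2 groups given dexamethasone overlapped (0.01, SE 0.17, adjusted p = 0.96). The difference between them, with its SE, leaves room for a change of either sign.

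Of the 9 glutathione transferases, 6 were lower and 3 higher in GC than in Control (39.1% and 16.2% of all tested genes). In GC+GW9662 against GC, 6 were higher and 2 lower (28.3% and 33.5% of all tested genes). Mgst3 (chr1:167371966-167393841, minus strand), a microsomal transferase and peroxidase, had 248, 302 and 264 TPM in GC+GW9662, 8.12, 4.06 and 3.38 TPM in GC, and 129 and 137 TPM in Control. It had the steepest fall of the 41 genes, -4.51 (SE 0.28, adjusted p = 7.4e-06) in GC against Control, and was higher in GC+GW9662 than in GC by 5.53 (SE 0.25, adjusted p = 1.5e-06). Mgst1 (chr6:138140316-138156755, plus strand), its abundant microsomal relative, had 1181, 1242 and 1206 TPM in GC+GW9662, 355, 154 and 219.8 TPM in GC, and 606 and 676 TPM in Control. The fall was smaller, -1.48 (SE 0.29, adjusted p = 0.003) in GC against Control, and did not pass with median-ratio scaling (-0.93, adjusted p = 0.077). In GC+GW9662 against GC the change was 2.40 (SE 0.26, adjusted p = 1.3e-04). The ratio of Mgst1 to Mgst3 TPM was 4.76, 4.11 and 4.57 in GC+GW9662, 43.7, 37.8 and 65 in GC and 4.68 and 4.95 in Control.

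Gstt1 (chr10:75783813-75798584, minus strand), the theta-class transferase, had 8.77, 10.8 and 9.73 TPM in GC+GW9662, 0.453, 0.971 and 1.24 TPM in GC, and 7.43 and 6.61 TPM in Control. The GC values stand for an estimated 6.90, 18 and 23.5 reads, so their counting error is large, and they lay below all others (-2.11, SE 0.23, adjusted p = 1.4e-04 against Control; 2.53, SE 0.21, adjusted p = 2.9e-05 for GC+GW9662 against GC). Gsto1 (chr19:47854970-47864790, plus strand), the omega-class transferase with thiol-reducing activity, had 394, 369.5 and 373 TPM in GC+GW9662, 1889.5, 1668 and 1753 TPM in GC, and 326 and 316 TPM in Control. It was the only transferase to more than double in GC, by 2.46 (SE 0.09, adjusted p = 7.3e-07) against Control, and GC+GW9662 against GC gave -2.22 (SE 0.08, adjusted p = 6.3e-07). Its TPM made up 15.7% to 17.6% in GC+GW9662, 71.4% to 75.4% in GC and 20.6% to 22.4% in Control of the 9 transferases. Mgst1 made up 52.7% to 53.1% in GC+GW9662, 6.95% to 13.4% in GC and 41.6% to 44.1% in Control.

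The mu-class transferases, neighbours on chromosome 3, did not move together. Gstm1 (chr3:108012255-108017973, minus strand) had 61.1, 55 and 61.2 TPM in GC+GW9662, 159, 209 and 187 TPM in GC, and 132 and 133 TPM in Control. It was highest in GC, where the rise of 0.47 (SE 0.13, adjusted p = 0.018) against Control was lost in 6 alternatives, among them the omission of Control replicate 1, Control replicate 2 or GC replicate 3 (adjusted p = 0.10, 0.088 and 0.053), and it fell by 1.62 in GC+GW9662 against GC (adjusted p = 1.6e-05). Gstm2 (chr3:107981702-107986453, minus strand) had 77.7, 83.5 and 86.3 TPM in GC+GW9662, 27.8, 28.1 and 22 TPM in GC, and 73.7 and 72.8 TPM in Control. It was lowest in GC, at -1.47 (SE 0.14, adjusted p = 5.7e-05) against Control and 1.64 (SE 0.12, adjusted p = 1.8e-05) in GC+GW9662 against GC. Gstm5 (chr3:107895821-107898686, plus strand) had 151, 152 and 155 TPM in GC+GW9662, 44.7, 29.5 and 33 TPM in GC, and 83.8 and 83.2 TPM in Control. It too was lowest in GC, at -1.22 (SE 0.17, adjusted p = 4.5e-04) against Control, a call that median-ratio scaling did not keep (-0.68, adjusted p = 0.052), and 2.09 (SE 0.15, adjusted p = 1.5e-05) in GC+GW9662 against GC. The ratio of Gstm1 to Gstm2 TPM was 0.787, 0.659 and 0.709 in GC+GW9662, 5.72, 7.45 and 8.52 in GC and 1.78 and 1.83 in Control. Mu-class genes are near-identical in places, and the pseudogene Gstm2-ps1 had its own reads (18.9, 33.1 and 27.1 TPM in GC), so the split between them is uncertain. Gsta4, which conjugates lipid aldehydes, and Gstp1, the pi-class enzyme, changed by -0.67 and 0.51 in GC against Control (adjusted p = 0.035 and 0.022). Both calls were lost without Control replicate 1 (-0.69 and 0.44, adjusted p = 0.13 and 0.14) and without Control replicate 2 (-0.65 and 0.58, adjusted p = 0.15 and 0.067). That of Gsta4 was also lost on leaving out any single GC+GW9662 library, GC replicate 2 or GC replicate 3 (adjusted p = 0.054 to 0.10).

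Among the quinone, carbonyl and epoxide enzymes, Nqo1 rose and Aldh3a1 and Ephx1 fell in GC against Control. Nqo1, the quinone reductase used widely as a readout of Nrf2, averaged 137 ± 8.24 TPM in GC+GW9662, 387 ± 68.5 TPM in GC and 137 ± 5.18 TPM in Control. It was higher in GC than in Control (1.48, SE 0.15, adjusted p = 8.7e-05) and lower in GC+GW9662 than in GC (-1.48, SE 0.13, adjusted p = 5.2e-05). Osgin1 (chr8:119434124-119446256, plus strand), an oxidative-stress-induced growth inhibitor, had 5.64, 5.92 and 6.09 TPM in GC+GW9662, 78.9, 178 and 134 TPM in GC, and 21.4 and 20.6 TPM in Control. The 3 groups did not overlap, with 2.5 (SE 0.29, adjusted p = 2.0e-04) in GC against Control and -4.18 (SE 0.26, adjusted p = 7.5e-06) in GC+GW9662 against GC.

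Aldh3a1 (chr11:61207537-61218421, plus strand), which oxidises lipid-derived aldehydes, had 19.3, 13.1 and 15.3 TPM in GC+GW9662, 3.18, 2.96 and 2.52 TPM in GC, and 35.9 and 28 TPM in Control. It fell by 3.08 in GC against Control (SE 0.21, adjusted p = 1.2e-05). Aldh3a1 was higher in GC+GW9662 than in GC by 2.1 (SE 0.19, adjusted p = 4.7e-05), with all its values below those of Control. The change in GC+GW9662 against Control was -0.97 (adjusted p = 0.0053), and -0.80 without Control replicate 1. That call was lost with median-ratio scaling (-0.31, adjusted p = 0.22) and with quantile normalization (-0.18, adjusted p = 0.52). Ephx1 (chr1:180976210-181020904, minus strand), the microsomal epoxide hydrolase, had 648, 566 and 645 TPM in GC+GW9662, 226, 258 and 249 TPM in GC, and 889 and 849 TPM in Control. It fell by 1.83 in GC against Control (SE 0.11, adjusted p = 5.0e-06), and GC+GW9662 against GC gave 1.34 (SE 0.09, adjusted p = 1.4e-05). Akr1a1, an aldo-keto reductase, and Cbr3, a carbonyl reductase, did not pass in GC against Control (0.15 and 0.29) or in GC+GW9662 against GC (0.34 and 0.30). Without GC replicate 1 both passed in GC+GW9662 against GC (0.51, adjusted p = 0.0011, and 0.48, adjusted p = 0.0068), and without GC replicate 2 Cbr3 passed in GC against Control (0.48, adjusted p = 0.015). In GC against Control, Cbr3 also passed with median-ratio scaling (0.83, adjusted p = 0.038) and quantile normalization (0.57, adjusted p = 0.047), and Akr1a1 with the exon-length trend removed (0.51, adjusted p = 0.043). Cbr1, the neighbouring carbonyl reductase, changed by 0.44 (SE 0.12, adjusted p = 0.016) in GC against Control, a call lost without Control replicate 1 (0.50, adjusted p = 0.059) and without Control replicate 2 (0.37, adjusted p = 0.14).

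The genes were also summed by role. The thioredoxin system summed to 1472 to 1627 TPM in GC+GW9662, 7302 to 8672 TPM in GC and 1124 to 1186 TPM in Control. Peroxiredoxins summed to 3769 to 4023 TPM in GC+GW9662, 13087 to 23026 TPM in GC and 2196 to 2342 TPM in Control. Prdx1 alone made up 43.7% to 44.7% of this sum in GC+GW9662, 83.9% to 85.3% in GC and 42.8% to 42.9% in Control. Glutathione peroxidases went the opposite way, at 5420.0 to 6238 TPM in GC+GW9662, 638 to 846 TPM in GC and 3136 to 3388 TPM in Control. Glutathione transferases summed to 2239 to 2350.2 TPM in GC+GW9662, 2211 to 2646 TPM in GC and 1457 to 1532 TPM in Control. Here GC+GW9662 and GC overlapped. All 41 genes together took 1.64% to 1.76% in GC+GW9662, 3.07% to 3.91% in GC and 1.17% to 1.22% in Control of the total TPM. Without Prdx1 and Srxn1 they summed to 14641 to 15699.7 TPM in GC+GW9662, 12978 to 14612 TPM in GC and 10612 to 11010 TPM in Control. GC then lay between Control and GC+GW9662, so the higher total in GC than in GC+GW9662 rests on these 2 genes.

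**Figure D4:**
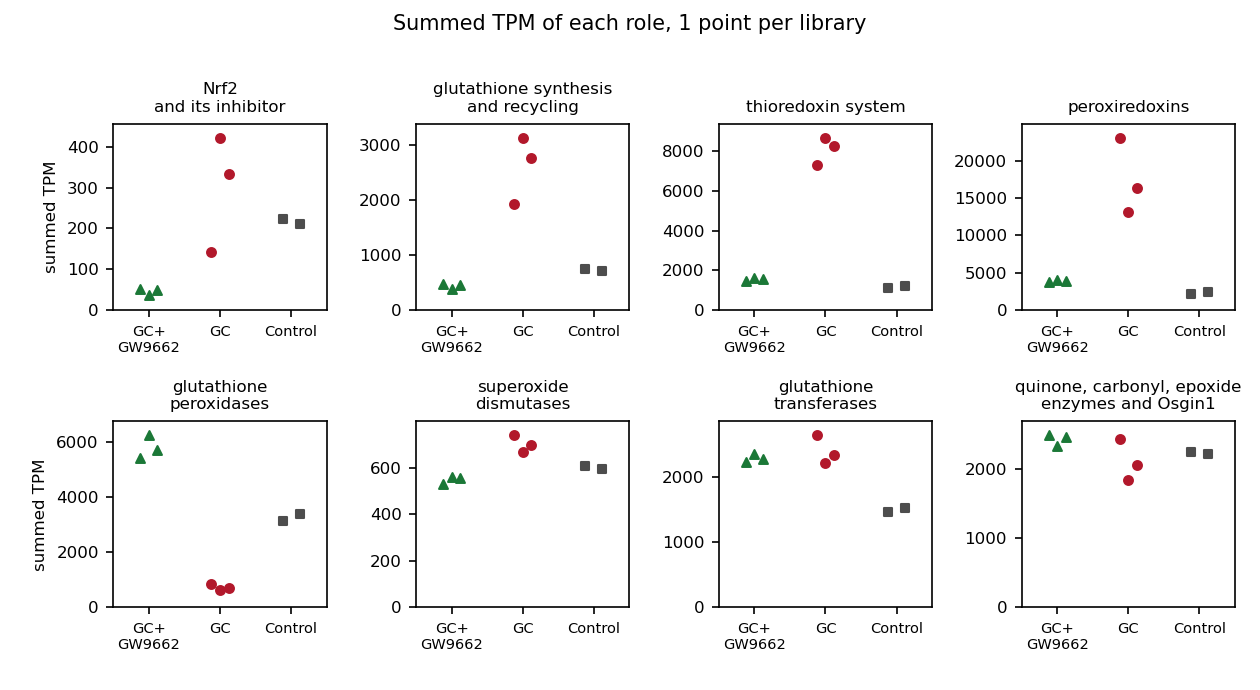
Summed TPM of each role in every library (points) of GC+GW9662, GC and Control, each panel from 0 with its own axis. The thioredoxin system and peroxiredoxins are highest in GC and glutathione peroxidases lowest there, while for the quinone, carbonyl and epoxide enzymes GC overlaps both other groups.

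Of the 31 genes called in GC+GW9662 against Control, 11 were kept under every alternative. They were the lower levels of Nfe2l2, Keap1, Gclc (-2.12, SE 0.36, adjusted p = 0.0027), Txnrd1 (-1.59, SE 0.24, adjusted p = 0.002), Osgin1 (-1.68, SE 0.29, adjusted p = 0.0028), Gstm1 (-1.15, SE 0.13, adjusted p = 0.0012) and Sod3. They also were the higher levels of Gpx4 (1.31, SE 0.23, adjusted p = 0.0027), Sod1 (1.0, SE 0.14, adjusted p = 0.0018), Gstm5 (0.86, SE 0.17, adjusted p = 0.0036) and Txn2 (0.83, SE 0.16, adjusted p = 0.0034). Peroxiredoxins 1 to 5 were higher in GC+GW9662 by 0.63 to 0.96, and of these none passed without Control replicate 1 (0.60 to 0.92, adjusted p = 0.063 to 0.092). With either Control replicate left out, only 1 Control library remained. Fewer genes were then called over the whole table as well, so the loss was not particular to these genes. The falls of Gss (-0.47), Gsr (-0.67), Srxn1 (-0.60), Gpx3 (-0.47) and Ephx1 (-0.49) turned to between 0.02 and 0.22 with median-ratio scaling, where none passed, so their direction rests on the scale. With the exon-length trend removed, Gss passed in the other direction (0.64, adjusted p = 0.0098). Nqo1 did not pass (0.01, SE 0.15, adjusted p = 0.98), except with median-ratio scaling (0.69, adjusted p = 0.038).

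TPM changes varied with exon length across all tested genes, over the widest range in this comparison. In GC+GW9662 against Control the median change was 0.59 in the shortest and -1.68 in the longest of 10 equal bins of genes. The bins ran from 0.18 to -1.09 in GC against Control and from 0.40 to -0.51 in GC+GW9662 against GC. In GC against Control, Srxn1, Prdx1 and Gclc lay 5.36, 4.23 and 3.56 above the median of their length bin, and Mgst3, Gpx1 and Glrx lay -4.57, -3.61 and -2.35 from theirs (log2). In GC+GW9662 against Control, Txnrd1 and Keap1 lay only -0.20 and -0.58 from theirs, against -1.81 for Nfe2l2 and -1.39 for Gclc. The part of the length trend in the results was not tested beyond its removal as an alternative.

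**Figure D5:**
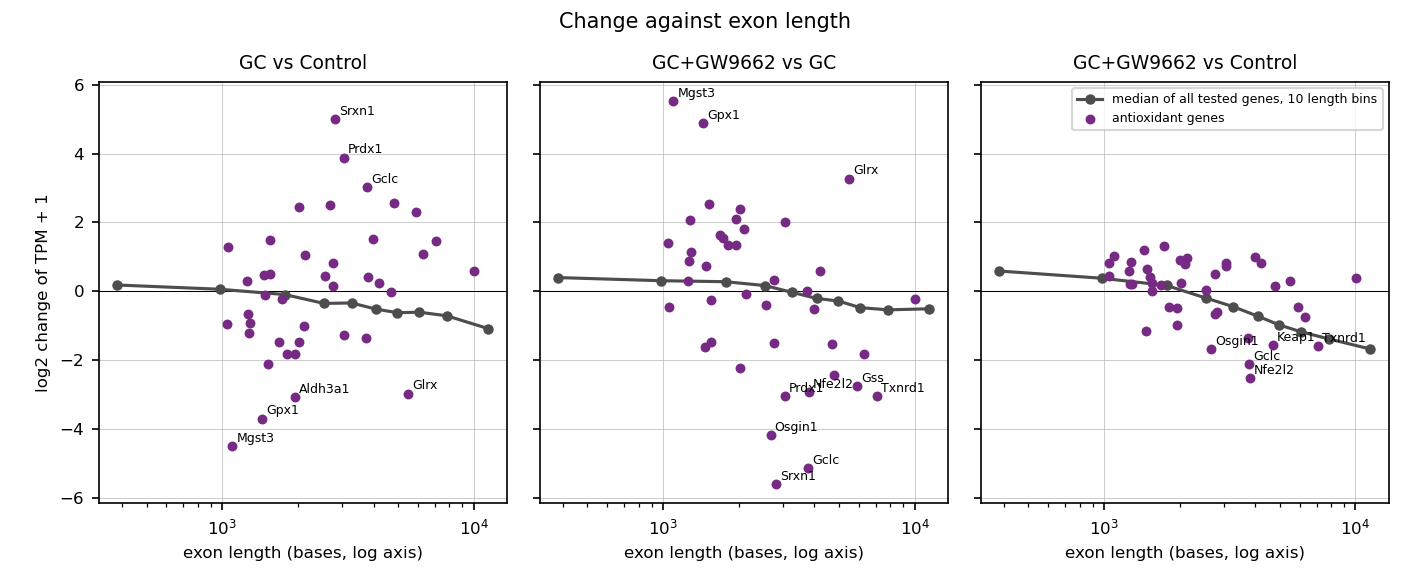
log2 change of TPM + 1 against exon length (log axis) for the 41 genes (purple) and the median of all tested genes in 10 length bins (grey line), in each comparison. The most changed genes lie far from the line in GC against Control and in GC+GW9662 against GC, and nearer to it in GC+GW9662 against Control.

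Among 79 other genes of these pathways, 72 were tested. In GC against Control 17 were higher and 32 lower (23.6% and 44.4%, against 16.2% and 39.1% of all tested genes), with a median change of -0.46 (-0.38 over all). Hmox1, which breaks down heme and is a classical Nrf2 target, changed by 3.52 (SE 0.10, adjusted p = 2.5e-07), Chac1, which degrades glutathione, by 4.13 (SE 0.11, adjusted p = 2.3e-07), and Slc3a2, the heavy chain of the cystine importer, by 2.35 (SE 0.12, adjusted p = 2.2e-06). Slc7a11, the importer's light chain, named after its values were seen, had 13.6, 10.6 and 13.9 TPM in GC+GW9662, 209.8, 343 and 308 TPM in GC, and 38.3 and 36.6 TPM in Control. Lower in GC were Txnip, the inhibitor of thioredoxin (-3.09, SE 0.12, adjusted p = 8.2e-07), Akr1b10, an aldo-keto reductase (-2.83, SE 0.15, adjusted p = 3.1e-06), and Nxn, nucleoredoxin (-1.76, SE 0.12, adjusted p = 1.0e-05).

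Of the 72, in GC+GW9662 against GC, 33 were higher and 26 lower (45.8% and 36.1%, against 28.3% and 33.5% of all), with a median of 0.06 (-0.11 over all). Hmox1 (-4.38), Chac1 (-4.05) and Slc3a2 (-2.94) were lower, and Txnip (2.32), Nxn (1.77) and the methionine sulfoxide reductase gene Msrb1 (2.12) higher, all with adjusted p of at most 1.0e-05. Against Control, GC+GW9662 had 10 higher and 31 lower (13.9% and 43.1%, against 14.1% and 48.6% of all), near or below the share over all genes, with a median of -0.26 (-0.49 over all). The leading genes there were the selenoprotein gene Selenow (1.01, SE 0.18, adjusted p = 0.0029), Glrx5, a mitochondrial glutaredoxin (0.89, SE 0.19, adjusted p = 0.0051), and Esd, an esterase of formaldehyde detoxification (0.83, SE 0.18, adjusted p = 0.0054), on the higher side. On the lower side were Hmox1 (-0.86, SE 0.10, adjusted p = 0.0012), Abcc3, an exporter of conjugates (-2.19, SE 0.26, adjusted p = 0.0013), and Sesn3, a sestrin (-1.86, SE 0.24, adjusted p = 0.0015).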

How the data were processed

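RNA of 8 libraries was measured with Smart-Seq2, which amplifies full-length cDNA and keeps no strand, per the labels. The submitters' processing notes name fastp, HISAT2 2.1.0 and featureCounts. In which order they ran, and on which build and annotation, is not given in the sources used here. TPM per gene were deposited by the authors, so counts and depth were only estimated here, from the steps between low values and GENCODE M21 exon lengths. In all, 54232 rows held 54134 genes (96 symbols repeated with the same values, 27 date-like symbols restored by Ensembl ID), and 97.4% of starts and ends were those of M21; coordinates are the deposited ones.

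The filter was 1 TPM or more in 2 or more libraries. Tests were made with limma 3.58.1 (R 4.3.3, with version 1.17.8 of data.table) on log2(TPM + 1), which understates the change of low genes, with group means over all 8 libraries and a prior trend on mean expression. Tests were two-sided, and p-values were adjusted by Benjamini-Hochberg over the tested genes of each of 3 comparisons, with a threshold of 0.05. The code was tested on simulated data. Tables and plots used Python 3.11.15, numpy 2.4.6, pandas 2.3.3 and matplotlib 3.10.9. The 41 genes and all lists were chosen with earlier results of these data known. Values per library are given for Nfe2l2, Keap1 and the called genes of greatest change, up to 24, and for other pathway genes up to 3 rising and 3 falling genes of smallest adjusted p per comparison. Alternatives were other pseudocounts (0.1, 5), other filters (none, 5 TPM), other scalings (median-ratio, quantile, rescaling that leaves out mitochondrial genes and the 20 most abundant), robust empirical Bayes, fits of the compared groups only, a replicate block, omission of each library, and removal of the exon-length trend, the last chosen after seeing the data. Replicates are numbered as in the titles.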

Additional observations from a re-analysis of the deposited data

How the results depend on the processing

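Across 20 alternatives, 2278 of 2460 values for single genes kept their direction and their side of the threshold, 93 kept the direction but no longer passed, 50 kept it and newly passed, and 39 changed sign, 30 of them of changes that had not passed. The count of genes lower in GC against Control was 9 with median-ratio scaling, against 16 as deposited. In GC+GW9662 against Control the counts were 27 higher and 7 lower with that scaling, against 17 and 14. Calls over all tested genes moved too. That scaling gave 4070 higher and 4029 lower in GC against Control (2428 and 5863 as deposited). In GC+GW9662 against Control it gave 4387 and 4744 (2114 and 7284 as deposited). Leaving out 1 library at a time gave 14 to 20 higher and 15 to 17 lower in GC against Control, 18 to 20 and 16 to 18 in GC+GW9662 against GC, and 4 to 20 and 9 to 14 in GC+GW9662 against Control, lowest without Control replicate 1. Over all tested genes, leaving out 1 GC or GC+GW9662 library gave 1995 to 3009 higher and 5301 to 6303 lower in GC against Control. In GC+GW9662 against Control it gave 1732 to 2580 and 6619 to 7749. Without a Control library the calls over all genes were fewer still in these comparisons, so the swing was not particular to these genes. The cause was not tested.

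Sign changes in GC+GW9662 against Control were, with median-ratio scaling, Gss (0.21), Gsr (0.0212), Srxn1 (0.0855), Gpx3 (0.22) and Ephx1 (0.20); with quantile normalization Gss (0.17); with the exon-length trend removed Gclm (0.42), Gss (0.64), Gpx7 (-0.0695), Gsta4 (-0.0771), Gstm2 (-0.0760) and Nqo1 (-0.24); and with the replicate block by title number Nqo1 (-0.0123). In GC against Control, median-ratio scaling gave Keap1 0.51, Prdx3 0.43 and Gpx4 0.31, quantile normalization Keap1 0.43, Prdx3 0.0976 and Gsta4 0.00617, rescaling Keap1 0.17 and Prdx3 0.0951, and removal of the length trend Keap1 0.65 and Prdx3 0.0338. In GC+GW9662 against GC they were Prdx5 (0.0667) with median-ratio scaling, Sod3 (-0.12 and -0.13) with quantile normalization and rescaling, and Sod2 (0.31) and Cbr3 (-0.0320) with the length trend removed. Leaving out 1 library at a time gave ranges across 0 in GC against Control for Keap1 (-0.25 to 0.24), Prdx3 (-0.24 to 0.0364) and Akr1a1 (-0.0161 to 0.30), in GC+GW9662 against GC for Prdx5 (-0.32 to 0.19) and Sod3 (-0.19 to 0.16), and in GC+GW9662 against Control for Nqo1 (-0.0321 to 0.0541) and Cbr1 (-0.0423 to 0.0908). Of the 39 sign changes, 2 passed with the new sign, both with the length trend removed. They were Gss in GC+GW9662 against Control (adjusted p = 0.0098) and Keap1 in GC against Control (adjusted p = 0.017). The causes were not tested.

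Replicate numbers shared by GC+GW9662 and GC gave correlations of deviations of -0.097, -0.117 and 0.079, against -0.104 to 0.138 for unlike numbers. No shared number exceeded the highest value for unlike numbers. With so few libraries per group, these values cannot show whether the libraries were paired, and Control was not included in them. With a replicate block by title number the genes called higher and lower numbered 15 and 15 in GC against Control, 18 and 16 in GC+GW9662 against GC, and 14 and 13 in GC+GW9662 against Control; with the block by the number in brackets they were 16 and 15, 18 and 16, and 17 and 13. Calls over all tested genes fell too. By title number they were 1999 higher and 5146 lower in GC against Control (2428 and 5863 without a block). In GC+GW9662 against GC they were 3850 and 4501 (4236 and 5017). In GC+GW9662 against Control they were 1780 and 6588 (2114 and 7284). By the number in brackets they were 2071 and 5258, 3877 and 4571, and 1812 and 6553. Gsta4, Gstm1, Gstp1 and Cbr1 lost their calls in GC against Control with the block by title number (adjusted p = 0.090, 0.071, 0.0502 and 0.060). Where 1 Control library was left out, the remaining one was assumed to vary like the other groups. Gstt1 in GC rests on few reads, and 2 Control libraries limit every comparison with Control.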
